A study of Mus musculus with 18 samples.

Results

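Transcript levels of 10 chaperone genes of the Hsp70 and Hsp90 families were described in RNA sequencing of whole testis from ICR mice, an outbred stock. The genes were chosen by name among the 20979 gene symbols that occur only once in the deposited table. All 10 were found: Hspa1a, Hspa1b, Hspa1l, Hspa2, Hspa4l, Hspa5, Hspa8, Hspa9, Hsp90aa1 and Hsp90ab1. The 18 libraries, from animals given as 10 weeks old, form 6 groups of 3. HFD-AOSFMT is a high fat diet with an FMT labelled AOS at 10 mg/kg, HFD-conFMT is the diet with an FMT labelled control, and HFD-AOS is the diet with AOS at 10 mg/kg. HFD is the diet alone, AOS is AOS at 10 mg/kg with no diet named, and control is the untreated group. The labels give AOS and FMT as abbreviations. Nothing in them ties the replicates to different animals, and p-values therefore reflect only how far these samples spread, which may be technical in part.

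Hsp70 proteins hold short water-repelling stretches of unfolded proteins and release them in a cycle driven by ATP, with J-domain proteins starting the cycle and exchange factors ending it. Hsp90 proteins are dimers that take over partly folded clients, among them kinases and steroid receptors, from Hsp70. The testis is known for using its own versions: in mice Hspa2 and Hspa1l are made in meiotic and later germ cells, Hspa2 is needed for male meiosis, and males lacking Hsp90aa1 are sterile. Hspa1a and Hspa1b are the classic heat-inducible pair, switched on when heat shock factors bind inverted GAA repeats in their promoters.

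Promoter sequences are shown first for 4 genes, since Hspa1a, Hspa1b and Hspa1l lie side by side on chromosome 17 yet stood far apart in level, and Hspa5 carries a stress element of another kind. Each sequence is the 250 bases before the RefSeq start site in GRCm38.p6, read 5′ to 3′ on the gene's own strand. Capitals mark the inverted GAA repeat GAANNTTC in Hspa1a and Hspa1b, and CCAAT followed by CCACG after a gap of 9 bases in Hspa5.
Hspa1a, chr17:34972157-34972406, strand -: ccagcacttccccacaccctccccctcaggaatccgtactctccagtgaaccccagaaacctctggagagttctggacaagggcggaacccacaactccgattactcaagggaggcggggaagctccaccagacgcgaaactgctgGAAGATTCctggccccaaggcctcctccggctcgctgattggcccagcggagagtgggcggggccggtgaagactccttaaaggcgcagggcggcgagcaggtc
Hspa1b, chr17:34959239-34959488, strand -: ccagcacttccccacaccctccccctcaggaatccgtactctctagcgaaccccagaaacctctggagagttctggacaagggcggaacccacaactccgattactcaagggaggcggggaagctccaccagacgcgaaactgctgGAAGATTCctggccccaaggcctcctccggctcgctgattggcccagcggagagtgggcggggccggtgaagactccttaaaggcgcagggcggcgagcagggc
Hspa1l, chr17:34972453-34972702, strand +: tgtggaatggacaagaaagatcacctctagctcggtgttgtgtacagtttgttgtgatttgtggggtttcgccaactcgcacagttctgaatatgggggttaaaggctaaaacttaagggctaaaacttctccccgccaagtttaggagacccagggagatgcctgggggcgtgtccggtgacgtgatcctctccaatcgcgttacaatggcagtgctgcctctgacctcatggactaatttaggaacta
Hspa5, chr2:34771840-34772089, strand +: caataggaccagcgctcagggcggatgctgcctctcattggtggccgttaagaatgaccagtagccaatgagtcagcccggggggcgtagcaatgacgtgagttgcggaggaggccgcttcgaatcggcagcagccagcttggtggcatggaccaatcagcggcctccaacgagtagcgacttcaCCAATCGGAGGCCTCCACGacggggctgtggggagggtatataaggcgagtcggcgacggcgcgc

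The Hspa1a and Hspa1b windows shared 247 of 250 bases. Counted from the first base of the window, the substitutions in Hspa1b relative to Hspa1a were C44T, T47C and T249G. Both windows held GAANNTTC between 104 and 97 bases before the start and CCAAT on the other strand from 67 to 63 bases before it. The start sites of Hspa1l and Hspa1a lie 547 bases apart and point away from each other, and that of Hspa1b lies 12918 bases from that of Hspa1a. The Hspa1l window held CCAAT from 57 to 53 bases before the start and neither GAANNTTC nor TTCNNGAA.

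The Hspa5 window held 4 CCAAT boxes, and the one from 65 bases before the start was followed by CCACG, the spacing of the endoplasmic reticulum stress element. Of 32851 mouse windows of the same length in the RefSeq table, 0.113% held that pair on either strand, 33.8% held CCAAT, 6.69% held GAANNTTC, 7.17% held TTCNNGAA and 12.8% held either of the GAA forms. The motifs TGACGTCA and TATAAA were in 1.55% and 12.4% of windows and in none of the members' windows. Windows were matched for 6 of the 10 genes. The Hspa2 window held CCAAT from 29 to 25 bases before the start, and the Hspa4l window held none of the motifs. These matches describe letters in these windows and no binding was measured.

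The libraries were close in overall content. Deposited values, read as FPKM (fragments per kilobase of transcript, scaled to mapped reads), summed to between 588081 and 637005 per library, and 12996 to 13221 genes reached 1 FPKM. Without read numbers no counting interval can be given. Germ cell markers were present in every library, with 10 of 10 spermatocyte, 8 of 8 round spermatid and 9 of 9 elongating spermatid markers at a mean of 1 FPKM or more. Control 3 and HFD-conFMT 2 carried transcripts of the epididymal gene Crisp1, at 159 and 104 FPKM, against 0 to 8.6 FPKM in the other 16 libraries. In such bulk samples fewer cells of a type and less RNA per cell cannot be told apart.

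The chaperones fell into 8 abundant genes and 2 scarce ones. In FPKM, which is per transcript length, Hsp90aa1 was highest in every library, followed by Hspa2, Hspa1l, Hspa4l and Hspa5 in that order in all 18. Hspa8 and Hsp90ab1 came next and were not separated, with Hspa8 the higher in 12 of 18 libraries. Hspa9 lay below both in every library, and Hspa1b and Hspa1a came last. Summed over the 10 genes, the level was 0.356% to 0.428% of all FPKM in a library.

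**Figure D1:**
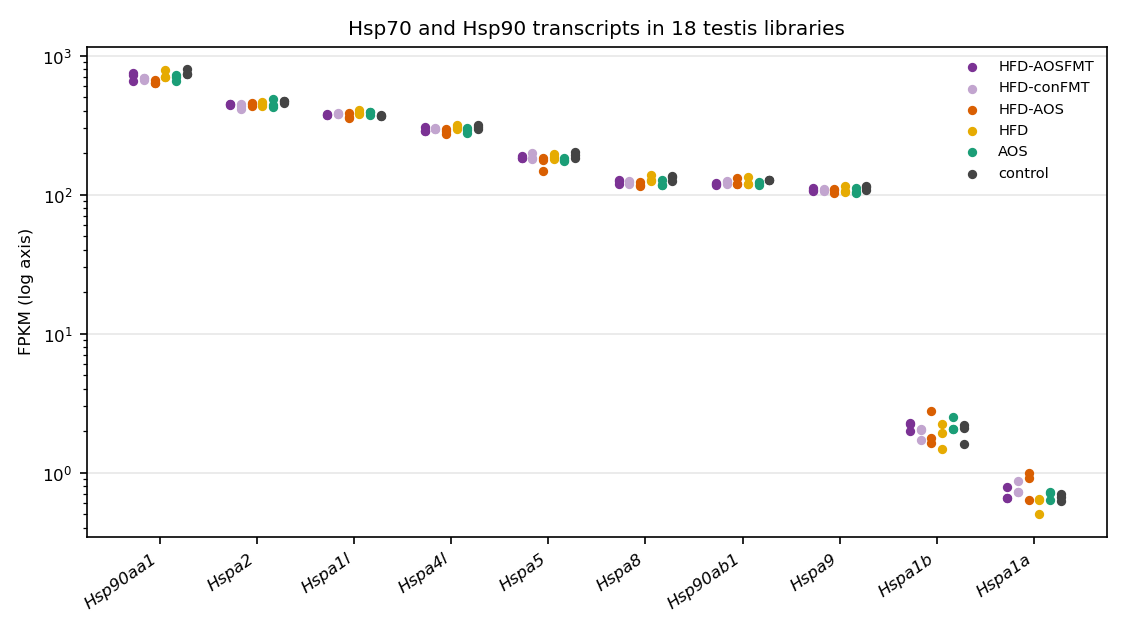
FPKM of each chaperone (log axis) in the 18 libraries, coloured by group, with genes in order of level. Hsp90aa1 sits between 635 and 797 FPKM, Hspa9 between 102 and 116 FPKM, and Hspa1a between 0.5 and 1 FPKM, with all 6 groups close together for each gene.

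Hspa2, the Hsp70 of meiotic germ cells, ran from 414 FPKM in HFD-conFMT 1 to 483 FPKM in AOS 1, with a median of 446 FPKM. It averaged 444 ± 2.79 FPKM in HFD-AOSFMT, 432 ± 15.7 FPKM in HFD-conFMT and 448 ± 11.1 FPKM in HFD-AOS. In the remaining groups it averaged 446 ± 14.01 FPKM in HFD, 451 ± 28.6 FPKM in AOS and 467 ± 8.24 FPKM in control (SD, n = 3 each). Control had the highest mean, and its 3 values lay above all values of HFD-AOSFMT, HFD-conFMT and HFD-AOS, while it overlapped HFD and AOS. Each pair of neighbours in the order of group means overlapped. For control paired with HFD-AOSFMT, HFD-conFMT or HFD-AOS, the share of all genes without overlap was not counted. The same holds for HFD-AOS paired with HFD-conFMT, and for all these pairs in the genes below. In the comparisons tested further below, that share ran from 10.1% to 23.2%. Non-overlap in an uncounted pair therefore only describes the values and does not set the chaperones apart from other genes. Among the 13105 genes whose mean level reached 1 FPKM, Hspa2 ranked 183 by level. It lies on chromosome 12 (76404176 to 76406938, plus strand, GENCODE annotation of GRCm38), and shared no 50-base word with another gene's transcripts.

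Hspa1l, the Hsp70 known in mice from spermatids, was the steadiest of the chaperones. Its coefficient of variation over the 18 libraries was 2.98%, lower than that of 99.0% of the genes tested, whose median was 8.67%. It stood at 378, 373 and 375 FPKM in HFD-AOSFMT, 389, 380.0 and 381 FPKM in HFD-conFMT, and 386, 357 and 364 FPKM in HFD-AOS. HFD libraries held 404, 378 and 389 FPKM, AOS libraries 390.2, 390.0 and 374 FPKM, and control libraries 370.1, 374 and 367 FPKM. Means ran between 369 FPKM in HFD-AOS and 390.4 FPKM in HFD, and every library of HFD-conFMT and of HFD lay above every control library. The gene lies on chromosome 17 (34972703 to 34979285, plus strand) across from the antisense gene Gm10501, and the strand setting of the counting is not given in the sources used here, so reads of that partner could be counted in it.

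Levels of Hspa1l and of its neighbours were far apart. The ratio of Hspa1l to Hspa1a ran from 357 in HFD-AOS 2 to 808 in HFD 1, with a median of 549. The ratio of Hspa1l to Hspa1b ran from 132 to 273. Of the 50-base words of the longest Hspa1l transcript, 9.57% also occur in Hspa1a. For Hspa1a and Hspa1b, 60.3% and 62.3% of the words occur in other genes. If reads of shared sequence were left out, levels of that pair would read too low and these ratios too high, which was not tested.

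Hspa4l, an Hsp110 protein that acts as an exchange factor for Hsp70 and is enriched in mouse germ cells, came after Hspa1l in level. It stood at 304, 289 and 287 FPKM in HFD-AOSFMT, 300.8, 297 and 295 FPKM in HFD-conFMT, and 284, 295 and 271 FPKM in HFD-AOS. HFD libraries held 304, 316 and 297 FPKM, AOS libraries 279.55, 299 and 290.2 FPKM, and control libraries 298, 315 and 304 FPKM. HFD-AOS lay wholly below HFD and below control, while the other groups overlapped these. Hspa4l spans chromosome 3 from 40744495 to 40796103 on the plus strand.

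Hsp90aa1, the inducible cytosolic Hsp90, was 81st among the genes tested and varied most of the abundant chaperones, with a coefficient of variation of 6.67%. It stood at 751, 722 and 659 FPKM in HFD-AOSFMT, 694, 685 and 671 FPKM in HFD-conFMT, and 635, 663 and 635 FPKM in HFD-AOS. HFD libraries held 701, 790.4 and 702 FPKM, AOS libraries 659, 720 and 699.9 FPKM, and control libraries 732, 797 and 734 FPKM. HFD-AOS was lowest of the 6 groups, and its values did not overlap those of HFD-conFMT, HFD or control. Hsp90aa1 lies on chromosome 12 (110690605 to 110702728, minus strand). Of the 50-base words of its longest transcript 58.5% occur in 4 other annotated genes, mostly Gm12346, which is absent from the values analysed. Whether reads of shared sequence were split between genes or left out is therefore uncertain.

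Hsp90ab1, the constitutive cytosolic Hsp90, was far lower and steadier. It averaged 119.6 ± 2.79 FPKM in HFD-AOSFMT, 122.8 ± 3.96 FPKM in HFD-conFMT and 123.3 ± 7.65 FPKM in HFD-AOS. In HFD it averaged 124 ± 8.37 FPKM, in AOS 121 ± 2.77 FPKM and in control 127 ± 0.531 FPKM (SD, n = 3 each). All values of HFD-AOSFMT, HFD-conFMT and AOS lay below the 3 control values. The ratio of Hsp90aa1 to Hsp90ab1 ran from 4.81 in HFD-AOS 1 to 6.30 in control 2, with a median of 5.82. Within HFD-AOS the ratio lay between 4.81 and 5.60, and within HFD between 5.89 and 5.93, so the 2 groups did not overlap. HFD-conFMT also lay wholly below HFD in this ratio, so the separation was not particular to HFD-AOS. AOS, HFD-AOSFMT and control overlapped HFD, and HFD-AOS lay wholly below control. How often ratios of other genes separate these groups was not counted. In HFD-AOS 1, the library of lowest ratio, Hsp90ab1 was at 132 FPKM, against 118 and 119 FPKM in HFD-AOS 2 and 3. Hsp90ab1 lies on chromosome 17 (45567775 to 45573271, minus strand).

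Hspa8, the constitutive cytosolic Hsp70 that also uncoats clathrin vesicles, stood at 119, 125 and 127 FPKM in HFD-AOSFMT, 124, 119 and 126 FPKM in HFD-conFMT, and 116, 122.7 and 116 FPKM in HFD-AOS. HFD libraries held 128, 139 and 125 FPKM, AOS libraries 117, 128 and 118 FPKM, and control libraries 125, 135 and 136 FPKM. All HFD-AOS values were below all HFD and all control values. The ratio of the germ cell form Hspa2 to Hspa8 ran from 3.31 to 4.14. Hspa8 lies on chromosome 9 (40800984 to 40810087, plus strand), and 51.4% of the 50-base words of its longest transcript occur in 13 other annotated genes. Most of these words are in Gm15459, also absent from the values analysed, so reads of Hspa8 too may have been split or left out.

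Hspa5, known as BiP, is the Hsp70 of the endoplasmic reticulum and holds the stress sensors of the unfolded protein response inactive. It stood at 189, 182 and 182 FPKM in HFD-AOSFMT, 184, 198 and 181 FPKM in HFD-conFMT, and 147, 183 and 178 FPKM in HFD-AOS. HFD libraries held 181, 187 and 196 FPKM, AOS libraries 174, 184 and 177 FPKM, and control libraries 193, 202 and 183 FPKM. HFD-AOS 1 was the lowest of the 18, and the other 2 libraries of that group lay among the AOS values. Hspa5 lies on chromosome 2 (34771970 to 34777547, plus strand) and shared no 50-base word with another gene.

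Hspa9, the Hsp70 of the mitochondrial matrix, which drives protein import, kept between 102 FPKM in AOS 1 and 116 FPKM in control 2. Its group means lay between 106 ± 4.47 FPKM in AOS and 112 ± 4.13 FPKM in control (SD, n = 3 each), and neighbours in the order of groups overlapped. Its coefficient of variation was 3.65%. Variation can depend on level, so these low values have to be read against genes of like level in the plot of variation against mean.

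**Figure D2:**
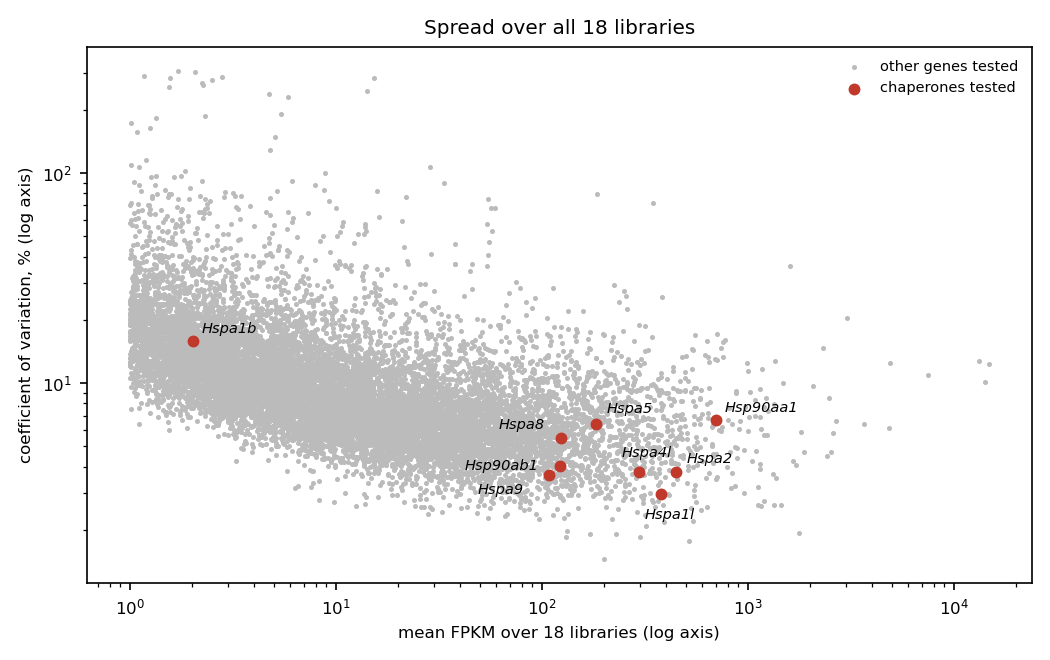
Coefficient of variation over the 18 libraries (%, log axis) against mean FPKM (log axis) for the genes tested, with the 9 chaperones tested in red. Hspa1l has 2.98%, Hsp90aa1 6.67% and the scarce Hspa1b 15.8%. How these rank among genes of like level was not counted.

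The heat-inducible pair was scarce in all 6 groups. Hspa1b held 2.25, 1.99 and 2.28 FPKM in HFD-AOSFMT, 2.05, 2.01 and 1.71 FPKM in HFD-conFMT, and 1.64, 1.76 and 2.76 FPKM in HFD-AOS. In HFD libraries it was at 1.48, 2.22 and 1.93 FPKM, in AOS libraries at 2.05, 2.07 and 2.51 FPKM, and in control libraries at 2.09, 1.61 and 2.19 FPKM. Each group overlapped every other group for Hspa1b.

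Hspa1a was lower still and was under the filter on low values. It held 0.66, 0.79 and 0.66 FPKM in HFD-AOSFMT, 0.72, 0.87 and 0.73 FPKM in HFD-conFMT, and 0.64, 1 and 0.91 FPKM in HFD-AOS. In HFD libraries it was at 0.5, 0.65 and 0.64 FPKM, in AOS libraries at 0.73, 0.64 and 0.71 FPKM, and in control libraries at 0.62, 0.67 and 0.7 FPKM. HFD-AOSFMT and HFD-conFMT lay above HFD without overlap, and HFD-AOS overlapped HFD through its first library. For HFD-AOSFMT the margin was the smallest that values of 2 decimals allow, 0.66 FPKM against 0.65 FPKM in HFD. Among the genes that passed the filter, 17.2% did not overlap between HFD-AOSFMT and HFD, and 20.2% between HFD-conFMT and HFD. The ratio of Hspa1b to Hspa1a ran from 1.76 to 3.54 with a median of 2.99. On chromosome 17 Hspa1b spans 34956436 to 34959238 and Hspa1a 34969190 to 34972156, both on the minus strand. Of the 50-base words of Hspa1b 62.3% also occur in Hspa1a, so whether reads were split between them or left out is uncertain. Hspa1a also overlaps the gene Gm20481 on the other strand, whose reads could be counted in it for the same reason as for Hspa1l.

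**Figure D3:**
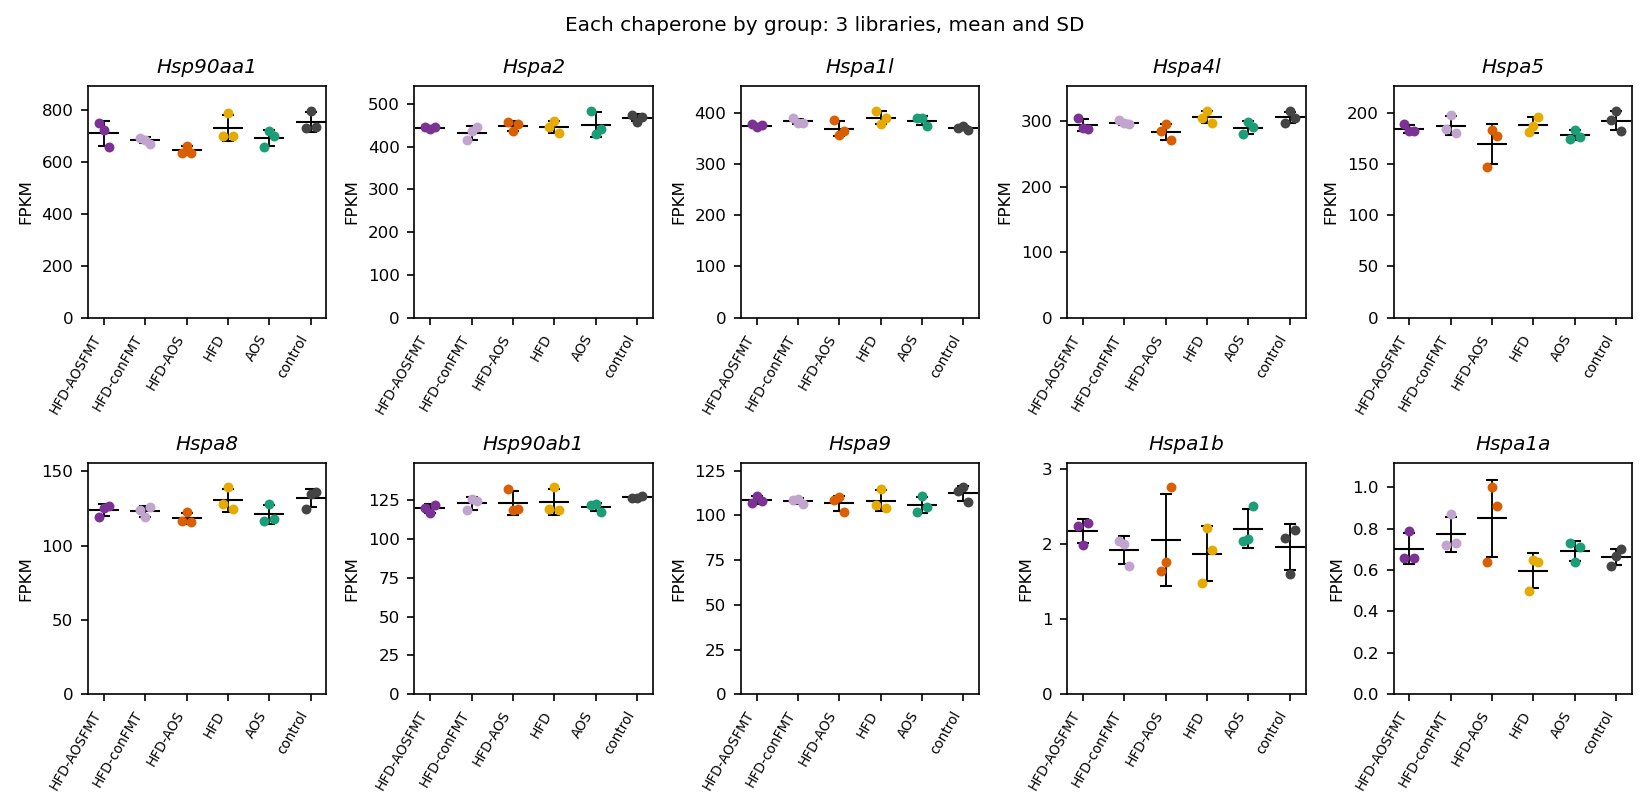
FPKM (axis from 0) of each chaperone in each group, with points for the 3 libraries and bars for the mean and SD. Control has the highest mean for 6 of the 10 genes and HFD-AOS the lowest for 5 of the 10, with spreads that mostly overlap. The share of all genes with these extremes was not counted. The median log2 value of all genes tested was 3.38, 3.40 and 3.41 in the control libraries and 3.33, 3.38 and 3.35 in HFD-AOS.

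Tests of group differences used limma on log2(FPKM + 1), a scale that understates the change of low genes, in 1 model of the 6 groups over 13105 genes. A gene is called at an adjusted p under 0.05 (Benjamini-Hochberg over all genes tested). Of the 10 chaperones 9 passed the filter, and Hspa1a was read from a fit without it. The test of any difference among the 6 groups called 0 of 9 chaperones and 0.328% of all genes. At an unadjusted p under 0.05 that test found 2 of 9 chaperones and 18% of all genes. Those 2 were Hsp90aa1 (limma adjusted p = 0.202) and Hspa8 (limma adjusted p = 0.277), which thus missed the threshold. A missed threshold does not show equal levels, and 95% intervals are therefore given.

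The comparison of HFD with control asks what the diet alone did. Hspa1l averaged 390.4 ± 13.0 FPKM in HFD and 370.3 ± 3.87 FPKM in control (SD, n = 3 each), a log2 difference of 0.076 with a 95% interval of -0.00051 to 0.15 (limma adjusted p = 0.736). With quantile normalization that difference was 0.015. Hsp90aa1 averaged 731 ± 51.3 FPKM in HFD and 754 ± 37.2 FPKM in control, with an interval of -0.17 to 0.075 and a log2 difference of -0.046, or -0.10 without HFD 2. Hspa4l was at 306 ± 9.26 FPKM in HFD and 306 ± 8.47 FPKM in control, with an interval of -0.086 to 0.086. By limma 0 of 9 chaperones and 0% of all genes were called. An unadjusted p under 0.05 was found for 0 of 9 chaperones and 6.75% of all genes. Values of HFD and control did not overlap for 1 of 9 chaperones, Hspa1l, and for 12.5% of all genes. The log2 difference was negative for 7 of 9 chaperones and 54.8% of all genes, with a median of -0.040 against -0.011 over all genes.

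The comparison of AOS with control asks what AOS did without the diet. Hsp90aa1 averaged 693 ± 30.9 FPKM in AOS and 754 ± 37.2 FPKM in control, a log2 difference of -0.12 (SE 0.057, limma adjusted p = 0.316). All AOS values of Hsp90aa1 were below all control values. Hspa8 averaged 121 ± 6.24 FPKM in AOS and 132 ± 6.21 FPKM in control, a log2 difference of -0.12 (SE 0.051, limma adjusted p = 0.258). Hsp90ab1 was at 122, 122.5 and 117 FPKM in AOS, below all control values of 127, 127 and 128 FPKM, with a log2 difference of -0.073, an interval of -0.18 to 0.033 and -0.039 with median centring. The ER chaperone Hspa5 averaged 178 ± 4.96 FPKM in AOS and 192 ± 9.66 FPKM in control, with an interval of -0.25 to 0.032.

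Between AOS and control, limma called 0 of 9 chaperones and 0.0229% of all genes. At an unadjusted p under 0.05 were 2 of 9 chaperones, Hsp90aa1 and Hspa8, and 15.8% of all genes. Values of AOS and control did not overlap for 2 of 9 chaperones and 23.2% of all genes, so non-overlap was no more frequent among the chaperones than overall. Negative differences were found for 7 of 9 chaperones and 59.8% of all genes, with a median of -0.077 against -0.029 over all genes. This comparison and that of HFD with control share the 3 control libraries.

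Marker sums of AOS and control did not overlap for 5 of the 11 lists. Elongating spermatid markers summed to 56251 to 57987 FPKM in AOS and 45079 to 51143 FPKM in control, and round spermatid markers to 1642 to 1702 FPKM in AOS and 1590.25 to 1636 FPKM in control. Taken singly, 8 elongating spermatid markers had a positive log2 difference and 1 a negative one. Of the round spermatid markers 5 were positive and 3 negative, with a median of 0.028. Leydig cell markers were lower, at 2566 to 3501 FPKM in AOS and 3510.0 to 4032 FPKM in control, as were blood markers, at 66.4 to 98.8 FPKM in AOS and 99.8 to 141 FPKM in control. The epididymal list summed to 1.62 to 3.08 FPKM in AOS and 3.85 to 169 FPKM in control. Between HFD and control 2 of the 11 lists did not overlap, round spermatids at 1658 to 1769 FPKM in HFD and the epididymal list at 2.5 to 3.26 FPKM in HFD. How far the chaperone values followed these markers was not tested.

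The comparison of HFD-AOS with HFD asks what AOS did on the diet. Hsp90aa1 averaged 644 ± 16.2 FPKM in HFD-AOS and 731 ± 51.3 FPKM in HFD (SD, n = 3 each). Its log2 difference was -0.18 (SE 0.057, 95% interval -0.30 to -0.059), and the limma adjusted p was 0.255. All 3 HFD-AOS values lay below all 3 HFD values. Without HFD 2, the HFD library of highest Hsp90aa1, the log2 difference was -0.12 (limma adjusted p = 0.658).

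Hspa8 averaged 118 ± 3.88 FPKM in HFD-AOS and 131 ± 7.67 FPKM in HFD, a log2 difference of -0.14 (SE 0.051, limma adjusted p = 0.304). Hspa4l averaged 284 ± 11.9 FPKM in HFD-AOS and 306 ± 9.26 FPKM in HFD, a log2 difference of -0.11 (SE 0.041, limma adjusted p = 0.312). Neither gene's groups overlapped, and without HFD 2 the log2 differences were -0.094 for Hspa8 and -0.084 for Hspa4l. Hspa5 averaged 169 ± 19.5 FPKM in HFD-AOS and 188 ± 7.38 FPKM in HFD, and Hspa1l 369 ± 15.0 FPKM in HFD-AOS and 390.4 ± 13.0 FPKM in HFD, with overlap in both genes. The log2 difference of Hspa5 was -0.16, or -0.058 without HFD-AOS 1, its lowest library. By contrast, Hspa2 averaged 448 ± 11.1 FPKM in HFD-AOS and 446 ± 14.01 FPKM in HFD, with a 95% interval of the log2 difference of -0.087 to 0.0998. Hsp90ab1 and Hspa9 likewise had log2 differences of -0.0025 and -0.019. Without the filter, Hspa1a had a log2 difference of 0.21 (SE 0.068, limma adjusted p = 0.338), the only one of the 10 in this comparison with an interval wholly above 0, at 0.063 to 0.35.

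Between HFD-AOS and HFD, limma called 0 of 9 chaperones and 0% of all genes. At an unadjusted p under 0.05 were 5 of 9 chaperones (Hsp90aa1, Hspa8, Hspa4l, Hspa5 and Hspa1l) and 12.7% of all genes. Values of HFD-AOS and HFD did not overlap for 3 of 9 chaperones and 13.4% of all genes. The log2 difference was negative for 7 of 9 chaperones and 56.1% of all genes, with a median of -0.081 against -0.017 over all genes. Some of these genes varied together across the 18 libraries and are then no independent draws. The Pearson correlation of log2 values was 0.85 between Hspa4l and Hsp90aa1, 0.77 between Hspa4l and Hspa8 and 0.72 between Hspa8 and Hsp90aa1, as a description over 18 libraries that share their groups. Others did not: Hspa1l had -0.016 with Hsp90aa1 and -0.022 with Hspa8, and 15 of the 36 correlations among the 9 were negative, down to -0.42 between Hspa1b and Hspa1l.

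Cell type markers are given beside these values, and limma called 0 genes of the 11 marker lists in each of the 6 comparisons. The summed level of 9 elongating spermatid markers was 54807 to 62866 FPKM in HFD-AOS and 42191 to 55472 FPKM in HFD, with 9 of 9 markers detected and overlap between the groups. Taken singly, 7 of these markers had a positive log2 difference and 2 a negative one, with a median of 0.15. HFD-AOS 1 held the highest elongating spermatid sum of the 18 libraries, and also the highest round spermatid and Leydig cell sums, at 1880 and 4949 FPKM. The lowest elongating spermatid sum, 42191 FPKM, was that of HFD 2. That library was the highest of its group for every chaperone except Hspa1l and Hspa5. Its median log2 value over all genes tested, 3.40, was also above the 3.36 of HFD 1 and of HFD 3. Spermatocyte markers summed to 913 to 998 FPKM in HFD-AOS and 968 to 989 FPKM in HFD, and round spermatid markers to 1647 to 1880 FPKM in HFD-AOS and 1658 to 1769 FPKM in HFD, both with overlap. The sums did not overlap for 1 of the 11 lists, macrophages and leukocytes, at 32.0 to 39.95 FPKM in HFD-AOS and 27.7 to 30.6 FPKM in HFD. The part of these markers in the chaperone differences was not tested.

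**Figure D4:**
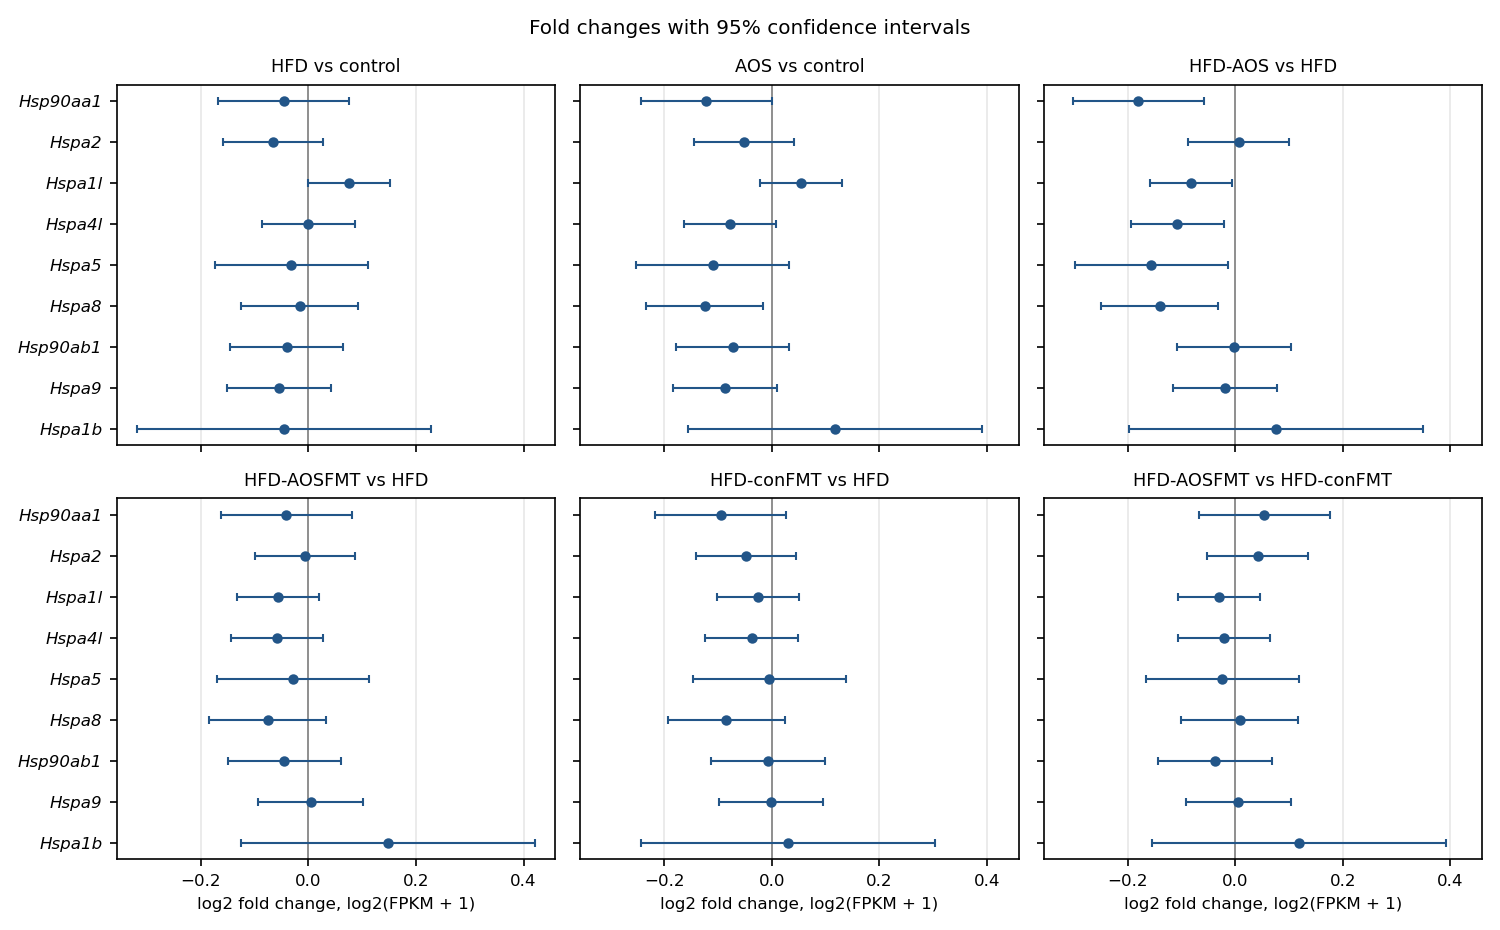
Log2 differences of the 9 chaperones tested, on the log2(FPKM + 1) scale, with 95% confidence intervals from limma in the 6 comparisons. In HFD-AOS against HFD the points of Hsp90aa1, Hspa8, Hspa4l, Hspa5 and Hspa1l lie left of 0 with intervals that do not reach it, and 0 of the 9 has an adjusted p under 0.05 in any panel.

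Whether AOS differed in effect with and without the diet was tested by the difference of the 2 AOS effects. It called 0 of 9 chaperones and 0% of all genes, and at an unadjusted p under 0.05 it found 1 of 9 chaperones, Hspa1l, and 6.86% of all genes. For Hspa1l the AOS effect was -0.081 on the diet and 0.055 without it on the log2 scale, but the second was -0.0040 with quantile normalization, so the opposite signs did not hold there. Their difference was -0.14 (SE 0.051, limma adjusted p = 0.703). For Hsp90aa1 the difference of effects was -0.058, with a 95% interval of -0.23 to 0.11 (-0.0010 without HFD 2), so an unequal AOS effect was not detected for it.

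The groups given an FMT were compared with HFD and with each other. In HFD-AOSFMT, Hspa1l averaged 375 ± 2.501 FPKM, below 390.4 ± 13.0 FPKM in HFD without overlap, with a log2 difference of -0.057 and a 95% interval of -0.13 to 0.019 (limma adjusted p = 0.627). That difference was -0.032 without HFD 1 and -0.1002 with quantile normalization. Hsp90aa1 averaged 711 ± 47.1 FPKM in HFD-AOSFMT and 731 ± 51.3 FPKM in HFD, with an interval of -0.16 to 0.080 and a log2 difference that turned to 0.016 without HFD 2. In HFD-AOSFMT against HFD, limma called 0 of 9 chaperones and 0.0229% of all genes. It found 0 of 9 at an unadjusted p under 0.05, against 9.82% of all genes. Non-overlap was seen for 1 of 9 chaperones, Hspa1l, and for 17.2% of all genes. Differences were negative for 7 of 9 chaperones and 52.6% of all genes, with a median of -0.041 against -0.0061 over all genes.

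In HFD-conFMT, Hsp90aa1 averaged 683 ± 11.8 FPKM, below 731 ± 51.3 FPKM in HFD without overlap. The log2 difference was -0.095 with a 95% interval of -0.22 to 0.026 (limma adjusted p = 0.519), or -0.038 without HFD 2 and -0.17 with quantile normalization. Hspa8 averaged 122.99 ± 3.58 FPKM in HFD-conFMT and 131 ± 7.67 FPKM in HFD. Limma called 0 of 9 chaperones in HFD-conFMT against HFD and 0% of all genes, with 0 of 9 chaperones and 12.3% of all genes at an unadjusted p under 0.05. Non-overlap was seen for 1 of 9 chaperones, Hsp90aa1, and for 20.2% of all genes. Without the filter, Hspa1a had a log2 difference of 0.15 (SE 0.068, limma adjusted p = 0.484). Differences were negative for 8 of 9 chaperones and 50.8% of all genes, with a median of -0.026 against -0.0020 over all genes. The comparisons with HFD share its 3 libraries.

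Between both FMT groups the source named in the label was compared. Hspa1l averaged 375 ± 2.501 FPKM in HFD-AOSFMT and 383 ± 4.92 FPKM in HFD-conFMT, without overlap, with a log2 difference of -0.031 (limma adjusted p = 1.000), or -0.020 without HFD-conFMT 1. Hsp90aa1 averaged 711 ± 47.1 FPKM in HFD-AOSFMT and 683 ± 11.8 FPKM in HFD-conFMT, with a 95% interval of -0.067 to 0.18. Limma called 0 of 9 chaperones in HFD-AOSFMT against HFD-conFMT and 0.00763% of all genes. At an unadjusted p under 0.05 were 0 of 9 chaperones and 3.12% of all genes, and 1 of 9 chaperones and 10.1% of all genes did not overlap. Differences were negative for 4 of 9 chaperones and 52.9% of all genes, with a median of 0.0060 against -0.0053 over all genes.

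In the FMT comparisons, macrophage and leukocyte markers summed to 31.8 to 35.5 FPKM in HFD-AOSFMT and 34.1 to 38.4 FPKM in HFD-conFMT, both above 27.7 to 30.6 FPKM in HFD without overlap. Elongating spermatid markers summed to 53176 to 55699 FPKM in HFD-AOSFMT, below 56349 to 60852 FPKM in HFD-conFMT, which lay above 42191 to 55472 FPKM in HFD. Spermatocyte markers summed to 956 to 975 FPKM in HFD-AOSFMT, above 922 to 952 FPKM in HFD-conFMT, which lay below 968 to 989 FPKM in HFD. The epididymal list summed to 2.23 to 2.92 FPKM in HFD-AOSFMT and 2.93 to 111 FPKM in HFD-conFMT. Their part in the values of Hsp90aa1 and Hspa1l was not tested.

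Other genes of the chaperone system were read from 7 lists of 81 genes, of which 77 passed the filter. Limma called 0 of the 77 in every comparison and in the test over all groups. Among other Hsp70 and Hsp110 genes (7 of 7 tested), Hspa4, a relative of Hspa4l, ran from 66.2 to 75.9 FPKM, and Hspa13 from 11.9 to 15.5 FPKM. Among the remaining Hsp90 genes (2 of 2 tested), the endoplasmic reticulum form Hsp90b1 averaged 225 ± 16.4 FPKM in HFD-AOS and 249.75 ± 9.35 FPKM in HFD (SD, n = 3 each). Its lowest library, HFD-AOS 1 at 207 FPKM, was also the lowest for Hspa5.

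Of the heat shock factor list 4 of 5 genes were tested. Its most abundant member Hsbp1, a small protein that binds heat shock factor 1, averaged 473 ± 26.0 FPKM in HFD-AOS and 406 ± 41.1 FPKM in HFD (limma adjusted p = 0.255 in that comparison). Among Hsp70 exchange and partner genes (13 of 13 tested) were Bag1, an exchange factor, at 272 to 309.6 FPKM, and Bag6, at 347 to 397 FPKM. The Hsp90 partners (21 of 21 tested) included Fkbp4, an immunophilin of steroid receptor complexes, at 205 to 228 FPKM, and Tomm70a, a mitochondrial import receptor, at 42.6 to 52.5 FPKM. Small heat shock and mitochondrial chaperonin genes (9 of 11 tested) included the testis-enriched Hspb9 at 1089.7 to 1415 FPKM, above Hsp90aa1, and Hspb6 at 29.3 to 49.1 FPKM. Endoplasmic reticulum and unfolded protein response genes (21 of 22 tested) included the lectin chaperone Calr at 294 to 324 FPKM and the disulfide isomerase P4hb at 24.9 to 32.4 FPKM, whose adjusted p over the 6 groups was 0.113 in limma.

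The genes that tracked each chaperone best over the 18 libraries were named as a description, since the libraries share groups and scaling. Hsp90aa1 went closest with Gramd1c (Pearson r = 0.92, Spearman rho = 0.89), Usp24 and Ncoa4. Hspa4l went closest with the mitotic kinesin Kif15 (r = 0.93, rho = 0.89), Dhx15 and Arih1, and Hspa5 with Bcap29 (r = 0.91, rho = 0.67), Krcc1 and Mib1. Hspa8 went closest with Timp2 (r = 0.88, rho = 0.86), and Hspa9 with the disulfide isomerase Pdia3 (r = 0.87, rho = 0.86). The best match was weaker for Hspa2, with Cyp2d22 (r = 0.80, rho = 0.76), for Hspa1b, with Zfp970 (r = 0.78, rho = 0.71), and for Hspa1l, with Dcun1d4 (r = 0.75, rho = 0.84). Hsp90ab1 went closest with Tgfbr2 (r = 0.87, rho = 0.83), which is at a mean of 1.06 FPKM.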

How the data were processed

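RNA sequencing of whole testis was used in 18 libraries, grouped by the labels into 6 groups of 3. Libraries were made from Trizol-extracted total RNA, per the labels' protocols. Mapping used Bowtie 0.12.2 and mm10, per the submitters' processing notes. How genes were counted, with which annotation and strand setting, is not given in the sources used here. A table was deposited by the authors, with 20985 rows and no named unit, read from its values as FPKM to 2 decimals. Depth per library is thus unknown. Excluded were 6 rows that carry 3 symbols listed more than once. The deposited columns do not carry the sample titles. They were matched to samples by the letters of their names and by replicate number, so that match is inferred.

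The log2(FPKM + 1) values of the 13105 genes whose mean over all libraries was 1 FPKM or more were analysed. A single limma model with a mean-variance trend and 6 group means gave the comparisons, with 12 residual degrees of freedom (limma 3.58.1, R 4.3.3), two-sided p-values, Benjamini-Hochberg adjustment over all genes and a threshold of 0.05. The model was tested on simulated data with independent values and planted log2 changes larger than those of the chaperones. That test does not cover changes of the chaperones' size. Figures and summaries used Python 3.11.15 and matplotlib 3.10.9. Coordinates and shared 50-base words came from the GENCODE annotation of GRCm38, promoters from RefSeq (GRCm38.p6). The words were taken from the longest transcript of each chaperone and searched in all transcripts of other genes. The 10 members are all named. Beside them, the naming rule took the 3 closest genes of each member by Pearson correlation and, of each list, genes called, the gene of smallest p over the groups and the most abundant gene. Members and lists were chosen with earlier results of these data known. Of each member's closest genes, those of highest correlation are given. Alternatives were pseudocounts of 0.1 and 5, no filter, a mean of at least 5 FPKM, quantile normalization, median centring, a replicate block, array weights, only the groups compared, and leaving out libraries.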

Additional observations from a re-analysis of the deposited data

How the results depend on the processing

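Of the 9 chaperones tested, limma called 0 in each comparison under up to 28 alternatives each, leave-one-out included; Hspa1a was fitted without the filter only. The lowest adjusted p of a chaperone was 0.1099 for Hspa8 in AOS against control (array weights). In HFD-AOS against HFD it was 0.164 for Hspa4l and Hspa5 (without HFD-AOS 2), and in the test over all groups 0.138 for Hspa1l (quantile normalization). Of 63 log2 differences of the chaperones, 25 changed sign under at least 1 alternative, each of them at most 0.076 in size. That of Hsp90aa1 in HFD-AOS against HFD was -0.24 with quantile normalization and -0.16 with median centring. Unknown read depth, 3 libraries per group and shared sequence in Hsp90aa1, Hspa8, Hspa1a and Hspa1b limit the precision.

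The counts over all genes were less stable, and the cause was not tested. In AOS against control the 3 calls became 0 with a pseudocount of 5, no filter, quantile normalization, only the groups compared, or without both control 3 and HFD-conFMT 2, 5 with median centring and 240 with array weights. In HFD-AOSFMT against HFD the 3 calls became 26 with no filter, 5 with a mean of at least 5 FPKM, 7 with array weights, and 1 with quantile normalization, median centring, the replicate block or without both control 3 and HFD-conFMT 2. In HFD-conFMT against HFD the 0 calls became 2 with a pseudocount of 5, 3 with no filter, 9 with array weights, and 1 with only the groups compared or without both control 3 and HFD-conFMT 2. HFD against control gave 1 with only the groups compared, HFD-AOS against HFD gave 2 with no filter, and HFD-AOSFMT against HFD-conFMT gave 16 in place of 1 with no filter. The 43 calls over all groups became 12 with quantile normalization, 20 with the replicate block, 130 with array weights and 1 without both control 3 and HFD-conFMT 2. With any single library left out there were 2 to 145 calls over all groups, 0 to 44 in AOS against control, 0 to 4 in HFD-AOS against HFD, 1 to 6 in HFD-AOSFMT against HFD and 0 to 17 in HFD-conFMT against HFD.

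Same-numbered libraries did not deviate together: over 45 such pairs r ran from -0.24 to 0.17 with a median of -0.0091, 2 pairs were above 0.1, and 6 of 18 libraries correlated best with their own number. The numbers thus gave no sign of a pairing, which these correlations cannot exclude. The replicate block left 0 chaperones called, as in the main fit.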
